A study of Mus musculus with 24 samples.

Results

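The 10 genes described here are Arg1, Arg2, Chil3, Retnla, Mrc1, Il4ra, Stat6, Nos2, Socs1 and Tgm2, a set chosen by name for the kind of macrophage activation that the cytokines IL-4 and IL-13 set off. They were found by symbol among the 43430 gene IDs of the deposited count table, and all 10 were in it. Each was followed through 24 RNA-seq libraries, 4 in each of 6 groups, made from alveolar macrophages that had been sorted out of the lungs of C57BL/6J mice.

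Young mice were 8 to 12 weeks old and old mice more than 18 months old by the sample labels. Naive mice gave 2 groups, 1 at each age, both of the Siglec F-high sort. Mice 28 days after asbestos gave the other 4, a Siglec F-high and a Siglec F-low sort at each age. Siglec F is a surface lectin that resident alveolar macrophages carry at high level, and the libraries are named here by that sort. The series text calls the cells tissue-resident and monocyte-derived, but it does not say which label is which. There was no naive Siglec F-low group, so asbestos could be compared with naive only in the Siglec F-high sort. Nothing in the labels says that the 4 replicates came from 4 mice, so the p-values measure the spread between these libraries, which may be technical.

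IL-4 and IL-13 bind receptors that share the chain IL-4Rα, encoded by Il4ra. The receptor activates the transcription factor STAT6, and SOCS1 is an induced inhibitor of the same signalling chain. In mouse macrophages the best known STAT6 targets are Arg1, Chil3 (also called Ym1), Retnla (also called Fizz1 or RELMα) and Mrc1. Arginase 1 splits arginine into ornithine and urea, while inducible nitric oxide synthase, the product of Nos2, turns the same amino acid into nitric oxide. These 2 enzymes mark opposite poles of textbook macrophage activation. Resident alveolar macrophages make much of the Chil3 protein even in a healthy mouse lung.

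STAT6 dimers are known to prefer a palindrome with 4 bases between its half-sites, written TTCNNNNGAA, and many other STAT dimers one with 3, TTCNNNGAA. Both motifs read the same on either strand, so 1 search covers both strands, and the 2 spacings cannot share all of their bases. Promoter sequence from RefSeq on GRCm38.p6 was at hand for 6 of the 10 genes (Chil3, Retnla, Mrc1, Il4ra, Stat6 and Socs1). The 250 bases before each RefSeq start were searched. In 3 of these windows an annotated exon begins before the RefSeq start, after 192 bases for Retnla, 228 for Mrc1 and 99 for Il4ra. The bases past that point were searched too. Among the 250-base windows of 32817 promoters, 5.85% held the first motif and 7.01% the second. Chil3 and Retnla are shown because their levels differed between groups and because each held 1 match, in capitals. The other 4 held neither motif in these windows. The match in Retnla, TTCACAAGAA, begins 145 bases before the RefSeq start and has the spacing of 4. The match in Chil3 begins 172 bases before the start and has the spacing of 3. The stretches are chr3:106167565-106167814 on the minus strand for Chil3 and chr16:48842359-48842550 on the plus strand for Retnla. The latter ends before the first annotated exon and so short of the RefSeq start. A match describes letters in the window and not a site that was bound.
Chil3: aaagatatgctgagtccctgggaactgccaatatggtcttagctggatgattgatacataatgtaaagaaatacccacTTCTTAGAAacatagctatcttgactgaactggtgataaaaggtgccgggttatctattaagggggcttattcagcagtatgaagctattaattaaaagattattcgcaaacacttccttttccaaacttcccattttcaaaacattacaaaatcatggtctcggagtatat
Retnla: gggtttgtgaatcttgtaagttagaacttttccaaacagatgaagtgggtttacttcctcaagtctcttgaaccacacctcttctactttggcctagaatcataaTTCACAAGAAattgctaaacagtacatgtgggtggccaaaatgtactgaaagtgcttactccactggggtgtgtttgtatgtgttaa

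Values are CPM, counts scaled to the library's size with TMM factors, and a gene was called where edgeR's quasi-likelihood test gave a Benjamini-Hochberg adjusted p under 0.05 over all genes tested. Of the 24 libraries, 22 held 13423080 to 18124526 counts. Replicate 3 of the old asbestos Siglec F-high group held 3894699, of which 35.6% were on the single gene Gm42418, and replicate 3 of the young asbestos Siglec F-high group held 11889517 counts on 12528 genes, against at least 17069 in each of the 22. Results are therefore given with all 24 libraries and with the 22. The 12 markers of alveolar macrophages were all detected in every group and summed to 8414 to 10767 CPM across the libraries. Siglecf itself was at 490 to 614 CPM in young naive, 489 to 512 in old naive, 236 to 294 in young asbestos Siglec F-low and 148 to 221 CPM in old asbestos Siglec F-low libraries. Its levels in the asbestos Siglec F-high groups are not reported here. These values therefore do not show how far it separated the sorts after asbestos.

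**Figure D1:**
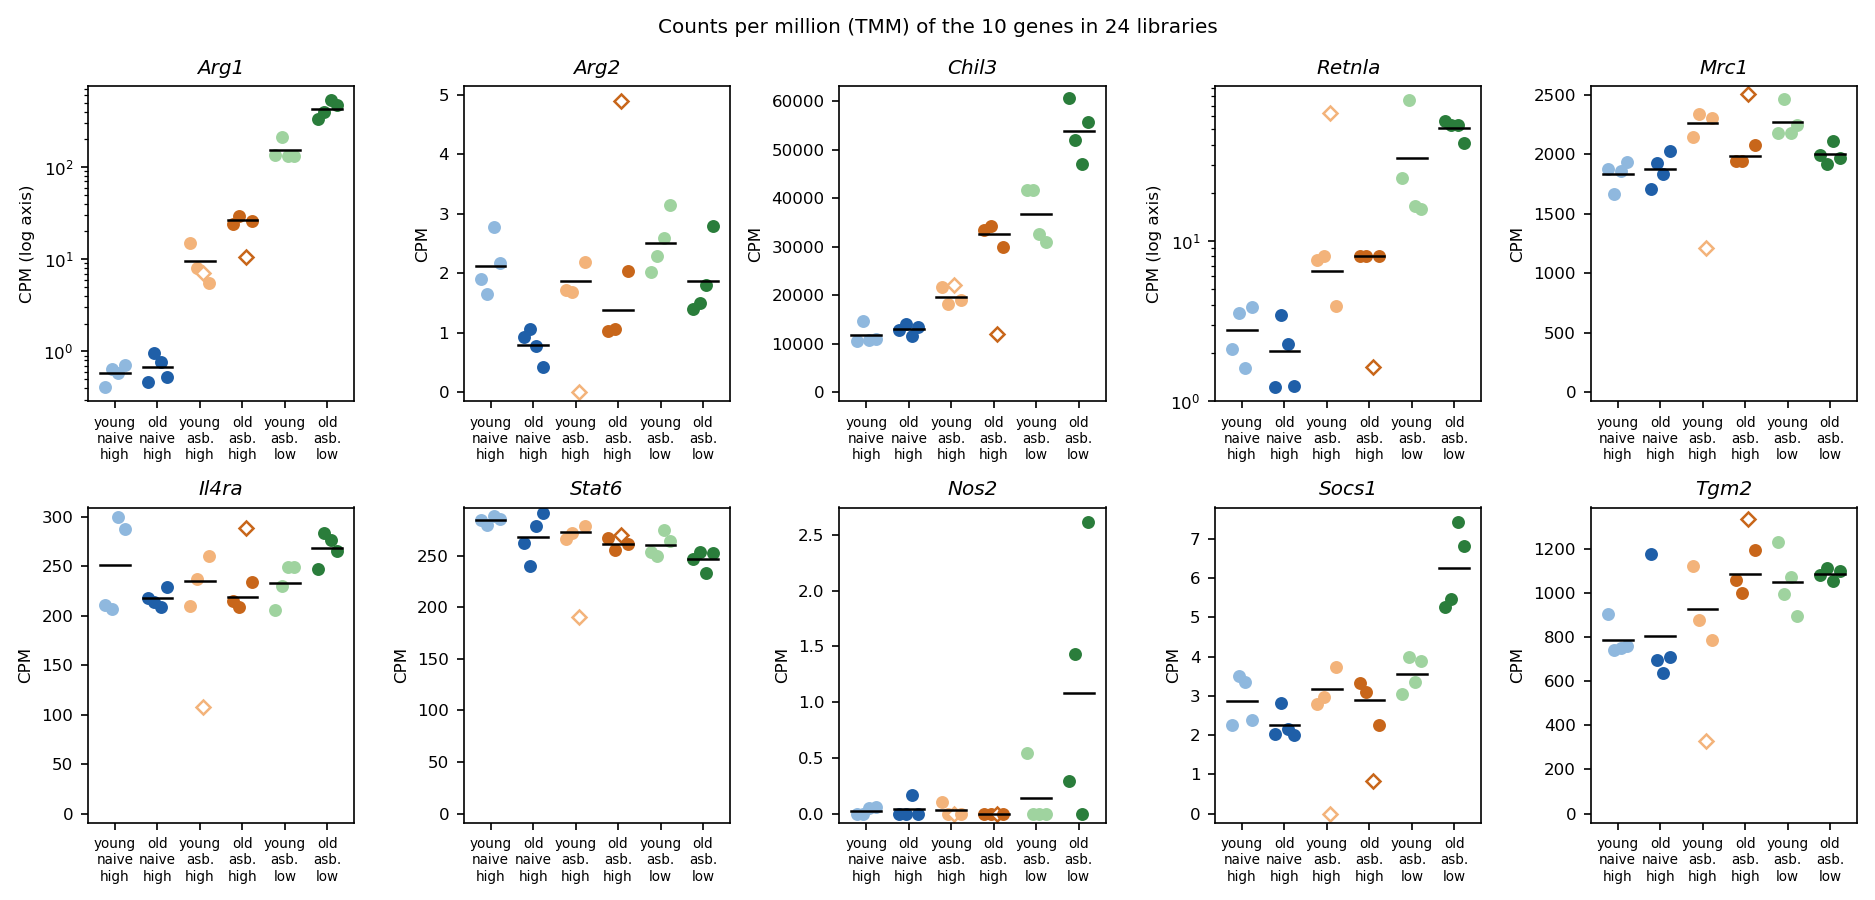
CPM of each of the 10 genes (vertical axis, logarithmic for Arg1 and Retnla and linear from 0 for the others) in the 6 groups, 1 point per library, with the line at the mean of the 22 libraries and open diamonds for the 2 outlying libraries. Arg1 climbs from below 1 CPM in the naive groups to 333 to 530 CPM in the old asbestos Siglec F-low group, while Mrc1, Il4ra, Stat6 and Tgm2 vary little.

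Il4ra, the receptor chain, and Stat6, the transcription factor, were called in no comparison, and their levels varied little between groups. Il4ra (ENSMUSG00000030748, chromosome 7, 125552120 to 125579474, plus strand) read 207 to 300 CPM in young naive, 209 to 230 in old naive, 206 to 249 in young asbestos Siglec F-low and 247 to 284 CPM in old asbestos Siglec F-low libraries. In the Siglec F-high sorts after asbestos it read 210 to 260 CPM (young) and 209 to 234 CPM (old) without the outlying libraries, which stood at 108 and 289 CPM. Its log2 fold changes over the 7 comparisons of 2 groups ran from -0.30 to 0.21 with 24 libraries and from -0.20 to 0.29 with 22, with a smallest edgeR adjusted p of 0.107. Stat6 (ENSMUSG00000002147, chromosome 10, 127642986 to 127660957, plus strand) lay between 233 and 292 CPM in all 22 libraries. Its log2 fold changes with 22 libraries ran from -0.09 to -0.03 with standard errors (SE) of 0.06 to 0.07.

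Socs1 (ENSMUSG00000038037, chromosome 16, 10782240 to 10785536, minus strand), the inhibitor of cytokine receptor signalling, was low in 5 groups and higher in the sixth. The old asbestos Siglec F-low libraries read 5.27, 5.48, 7.43 and 6.81 CPM, and the young asbestos Siglec F-low libraries 3.03, 3.99, 3.37 and 3.88 CPM. The 3 old asbestos Siglec F-high libraries other than replicate 3 read 3.31, 3.11 and 2.26 CPM. No library of another group reached the lowest old asbestos Siglec F-low value. With 22 libraries Socs1 rose in old against young Siglec F-low cells by 0.81 ± 0.19 (log2 ± SE, edgeR adjusted p 0.00837) and in old Siglec F-low against Siglec F-high cells by 1.10 ± 0.21 (edgeR adjusted p 0.000975). With 24 libraries neither was called, at 0.80 ± 0.46 (edgeR adjusted p 0.783) and 1.21 ± 0.48 (edgeR adjusted p 0.199).

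Among the 9 tested genes Arg1 had the widest range of fold changes. It lies on the minus strand of chromosome 10 between 24915221 and 24927484 (ENSMUSG00000019987). It read 0.41, 0.64, 0.58 and 0.70 CPM in young naive and 0.47, 0.95, 0.77 and 0.53 CPM in old naive libraries, from 8 to 17 reads each. After asbestos the Siglec F-high sort read 15, 7.95, 7.16 and 5.49 CPM in young and 24.3, 29.6, 10.6 and 25.8 CPM in old mice. The Siglec F-low sort read 137, 211, 131 and 131 CPM in young and 333, 395, 530 and 469 CPM in old mice. The group means rose in the order given here, but the groups did not all stand apart. Among the 22 libraries the naive groups alone overlapped. With 24 the 2 Siglec F-high groups after asbestos overlapped too, through the outlying old library at 10.6 CPM. In bulk libraries such a level can be set by the number of cells of a type or by the RNA per cell, and these cannot be told apart.

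Age went with more Arg1 in both sorts after asbestos. Old Siglec F-high cells held more than young ones by 1.42 ± 0.27 on the log2 scale (2.67-fold, edgeR adjusted p 0.00398; 1.49 ± 0.25 with 22 libraries), and old Siglec F-low cells more than young ones by 1.502 ± 0.26 (2.83-fold, edgeR adjusted p 0.00256; 1.51 ± 0.19 with 22 libraries). Both calls held when any single library was left out, with edgeR adjusted p up to 0.0172 and 0.019. In naive cells the difference was 0.23 ± 0.43 (edgeR adjusted p 1). Asbestos raised Arg1 in the Siglec F-high sort by 3.93 ± 0.35 in young and 5.11 ± 0.35 in old mice (edgeR adjusted p 9.49e-07 and 1.07e-08). The test of that difference gave 1.18 ± 0.52 (unadjusted p 0.0320, edgeR adjusted p 0.587), so the asbestos effects were not shown to differ by age. Siglec F-low exceeded Siglec F-high cells by 4.09 ± 0.29 in young and 4.18 ± 0.29 in old mice (edgeR adjusted p 2.87e-08 and 5.07e-09), and the difference between these was 0.09 ± 0.38 (edgeR adjusted p 0.960). These comparisons share groups with one another, so their sizes are not independent.

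The members called are read against the share of all genes called in either direction. The members were chosen with earlier results of these data known, so the shares give a scale and no test. Arg1 was the only one of 9 tested members called for age after asbestos with 24 libraries, where 4.76% of genes were called in the Siglec F-high and 1.29% in the Siglec F-low sort. With 22 libraries the members called were Arg1 and Chil3 in Siglec F-high (7.32% of genes) and Arg1, Chil3 and Socs1 in Siglec F-low cells (7.21% of genes). For age in naive cells no member was called with 24 libraries (2.03% of genes) and Arg2 alone, lower in old, with 22 (8.03% of genes). For asbestos in young mice, Arg1 and Retnla were called with 24 libraries (1.9% of genes), and Arg1, Chil3 and Mrc1 with 22 (5.06% of genes). In old mice these were Arg1 and Chil3 (0.78% of genes), joined by Retnla with 22 libraries (4.12% of genes). For the sorts of young mice, Arg1 and Chil3 were called (4.99% of genes), with Retnla added by 22 libraries (12% of genes). In old mice Arg1, Chil3 and Retnla were called (4.3% of genes), and Socs1 too with 22 libraries (11.6% of genes). Neither interaction called any member or, with 24 libraries, any gene by edgeR (0% of 13467 genes, with 1050 at an unadjusted p under 0.05 for asbestos and age and 650 for sort and age). DESeq2 called 0 and 6 genes in the same interactions, and edgeR with 22 libraries 2 in each (0.0147% of genes).

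**Figure D2:**
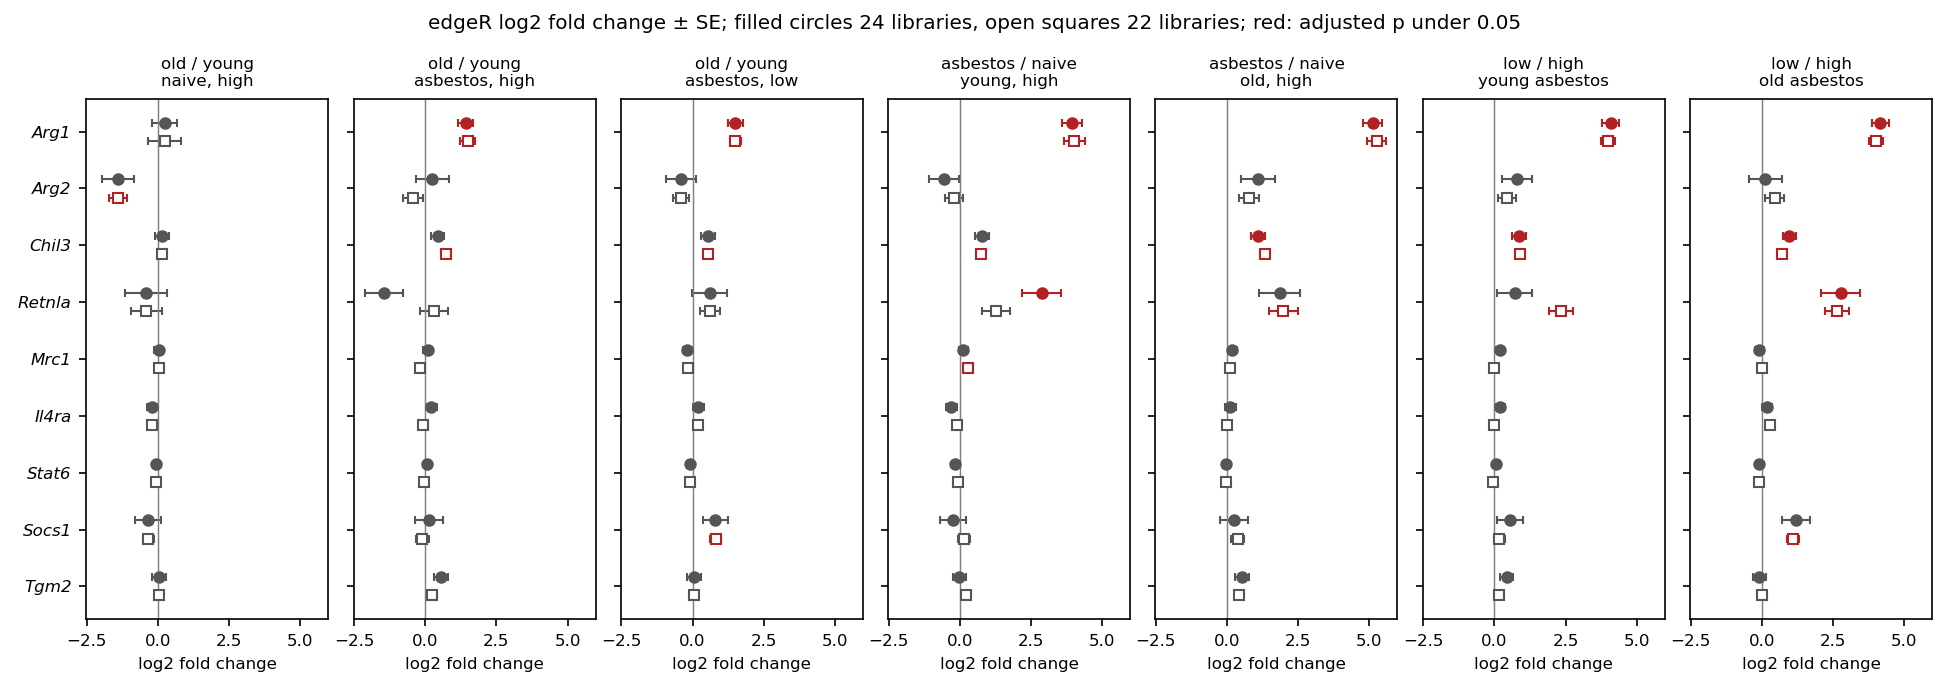
Log2 fold change ± SE (horizontal axis) of the 9 tested members in the 7 comparisons of 2 groups, with filled circles for 24 and open squares for 22 libraries and red for an edgeR adjusted p under 0.05. Arg1 is red in 6 of the 7 panels with either set of libraries, and Retnla shifts between the 2 sets, for example from -1.46 to 0.30 for age in asbestos Siglec F-high cells.

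Arg2 (ENSMUSG00000021125, chromosome 12, 79130777 to 79156301, plus strand) encodes the mitochondrial arginase. It read 1.90, 1.66, 2.77 and 2.17 CPM in young naive and 0.93, 1.07, 0.77 and 0.41 CPM in old naive libraries, so these groups did not overlap. The difference was -1.41 ± 0.55 with 24 libraries (edgeR adjusted p 0.343), and with 22 it fell by 1.41 ± 0.31 on the log2 scale (edgeR adjusted p 0.00511). In the asbestos groups the 22 libraries lay between 1.02 and 3.14 CPM with no call. Of its exon bases, 19.96% overlap Vti1b on the opposite strand, and the strand setting of the counting is not given in the sources used here, so some Arg2 reads may belong to that gene. Arg1 and Arg2 share no stretch of 50 bases. Per kb of exon, the ratio of the Arg1 level to the Arg2 level was 0.135 to 0.247 in young naive and 108 to 188 in old asbestos Siglec F-low libraries.

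Nos2 (ENSMUSG00000020826, chromosome 11, 78920787 to 78960254, plus strand), the enzyme that competes for arginine, was near the detection limit and did not pass the filter on low counts. No read was seen in any old asbestos Siglec F-high library, where 3 reads would be 0.188, 0.184, 0.770 and 0.223 CPM. The other groups of the Siglec F-high sort held 0 to 3 reads per library. Young asbestos Siglec F-low libraries held 8, 0, 0 and 0 reads, and old asbestos Siglec F-low libraries 5, 22, 0 and 43, the last being 2.61 CPM. In the same order these old Siglec F-low libraries read 333, 395, 530 and 469 CPM of Arg1. The library with no Nos2 read had the most Arg1, while among the others Arg1 rose with the Nos2 reads. Since Nos2 did not pass the filter with 24 or with 22 libraries, no group difference is given for it.

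Chil3 (ENSMUSG00000040809, chromosome 3, 106147554 to 106167564, minus strand) encodes a secreted chitinase-like protein that binds sugars but does not cut chitin. It made up 1.18 to 1.61% of the counts of a naive library, second only to Lyz2. In all Siglec F-low libraries and in the 3 old asbestos Siglec F-high libraries other than replicate 3 it was the most abundant gene, at up to 6.00% of counts. Young naive libraries read 10571 to 14711 CPM and old naive 11573 to 14077 CPM. Young asbestos Siglec F-high libraries read 18236 to 22123 CPM, the highest being the outlying one, and the 3 old ones 29949 to 34197 CPM, with the outlying one at 12001 CPM. Young Siglec F-low libraries read 30928 to 41764 CPM and old ones 47035 to 60670 CPM. Among 22 libraries the steps overlapped between the naive groups and between old Siglec F-high and young Siglec F-low cells.

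With 22 libraries Chil3 rose in 6 of the 7 comparisons. The differences by age were 0.74 ± 0.13 in Siglec F-high (edgeR adjusted p 0.00110) and 0.56 ± 0.11 in Siglec F-low cells (edgeR adjusted p 0.00351) after asbestos, and 0.15 ± 0.11 in naive cells (edgeR adjusted p 0.529). Asbestos raised it by 0.74 ± 0.12 in young and 1.33 ± 0.12 in old Siglec F-high cells (edgeR adjusted p 0.000737 and 4.22e-07). The test of the difference between the ages, 0.59 ± 0.17, had an unadjusted p of 0.00258 and an edgeR adjusted p of 0.578. Siglec F-low cells held 1.87-fold more Chil3 than Siglec F-high cells in young and 1.65-fold more in old mice (edgeR adjusted p 3.59e-05 and 0.000415). With 24 libraries 3 of these were called, at 1.08 ± 0.24 for asbestos in old mice (edgeR adjusted p 0.0308) and at 0.86 ± 0.24 and 0.97 ± 0.24 for the sorts in young and old mice (edgeR adjusted p 0.0386 and 0.0199). Single libraries ended each of the 3 calls. Asbestos in old mice lost its call without any one of the old naive libraries, old Siglec F-high replicates 1, 2 or 4, or young naive replicate 4 (edgeR adjusted p up to 0.141). The sorts in young mice lost theirs without young Siglec F-low replicates 1, 2 or 3, young Siglec F-high replicates 2 or 4, young naive replicates 3 or 4, or old naive replicate 1 (up to 0.118). In old mice it was lost without Siglec F-low replicates 1 or 4 (up to 0.0641). The log2 fold change was 0.72 or more in all of these.

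Chil3 has a close neighbour and relative, Chil4, also a secreted chitinase-like protein. Of the 50-base stretches of Chil3, 16.9% also occur in Chil4, so reads of one can be counted for the other or dropped. Chil4 counts were 1.17 to 2.23 per 10000 Chil3 counts in the 22 libraries. Chil4 was also the gene whose log2 CPM went most closely with Chil3 over those libraries (Pearson r 0.983), and their counts cannot be separated further here.

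Retnla (ENSMUSG00000061100, chromosome 16, 48842551 to 48844461, plus strand) encodes a small secreted protein of the resistin family. It read 2.11, 3.56, 1.60 and 3.85 CPM in young naive and 1.22, 3.42, 2.26 and 1.24 CPM in old naive libraries. After asbestos the Siglec F-high sort read 7.56, 8.05, 63.0 and 3.93 CPM in young and 8.02, 8.08, 1.63 and 8.08 CPM in old mice, the third value of each being the outlying library. The Siglec F-low sort read 24.6, 75.7, 16.6 and 15.8 CPM in young and 56.0, 52.7, 53.0 and 40.9 CPM in old mice. Old Siglec F-low libraries were all near one level, whereas replicate 2 of the young ones stood above every old one.

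For Retnla the choice of libraries decided several calls. Asbestos in young Siglec F-high cells gave 2.87 ± 0.70 with 24 libraries (edgeR adjusted p 0.0325), 1.26 ± 0.49 with 22 (edgeR adjusted p 0.156) and 2.57 with a replicate block (edgeR adjusted p 0.0852). Without any one of the young naive libraries that call was also lost (edgeR adjusted p 0.0811 to 0.139). In old mice it gave 1.84 ± 0.73 with 24 libraries (edgeR adjusted p 0.406) and rose by 1.97 ± 0.51 with 22 (edgeR adjusted p 0.0287). Siglec F-low against Siglec F-high cells of old mice gave 2.78 ± 0.69 with 24 (edgeR adjusted p 0.0202) and 2.64 ± 0.43 with 22 libraries (edgeR adjusted p 0.000219). That call was lost without any one of the 4 old Siglec F-high libraries, at 0.0518 to 0.0563, though the difference stayed at 2.64 or more. In young mice the same contrast was 0.71 ± 0.62 with 24 (edgeR adjusted p 0.545) and 2.34 ± 0.43 with 22 libraries (edgeR adjusted p 0.000771). When young Siglec F-low replicate 2 was also removed, leaving 21 libraries, it was 1.52 (edgeR adjusted p 0.00111), and asbestos in young mice, at 1.26, had an edgeR adjusted p of 0.0166. Removing that replicate alone from the 24 turned the young contrast to -0.09 (edgeR adjusted p 0.952), since the outlying Siglec F-high library at 63.0 CPM was then still in. No age difference of Retnla was called. Old against young Siglec F-high cells after asbestos gave -1.46 ± 0.67 with 24 libraries (edgeR adjusted p 0.172) and 0.30 ± 0.48 with 22 (edgeR adjusted p 0.801), a change of direction. Old against young Siglec F-low cells gave 0.61 ± 0.61 (edgeR adjusted p 0.9998).

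The relatives of Retnla differed in level. Retnlb, a resistin-like gene of the gut, had no read in any library. Retnlg, which neutrophils express, read 0.437 to 4.95 CPM in the Siglec F-high libraries among the 22, 2.45 to 9.37 CPM in young and 6.32 to 11.9 CPM in old asbestos Siglec F-low libraries. Retnla and Retnlg share no stretch of 50 bases.

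Mrc1 (ENSMUSG00000026712, chromosome 2, 14229392 to 14332057, plus strand) encodes the mannose receptor CD206, an uptake receptor often stained as a marker of alternative activation. It was high in all groups, from 1669 to 2467 CPM in the 22 libraries. Young naive libraries read 1877, 1669, 1860 and 1939 CPM, and the 3 young asbestos Siglec F-high libraries 2150, 2340 and 2308 CPM, with no overlap, while the outlying library read 1211 CPM. With 22 libraries Mrc1 rose there by 0.30 ± 0.07 (1.23-fold, edgeR adjusted p 0.0128). With 24 the value was 0.12 ± 0.15 (edgeR adjusted p 0.661). The sorts differed by 0.00 ± 0.07 in young and 0.00 ± 0.07 in old mice with 22 libraries. Old against young cells after asbestos gave -0.18 in each sort with 22 libraries (edgeR adjusted p 0.175 in Siglec F-high and 0.1104 in Siglec F-low).

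Tgm2 (ENSMUSG00000037820, chromosome 2, 158116402 to 158146436, minus strand), a transglutaminase that cross-links proteins, read 637 to 1229 CPM in the 22 libraries. The group means ran from 787 ± 76.8 CPM (SD, n = 4) in young naive to 1085 ± 26.0 CPM (SD, n = 4) in old asbestos Siglec F-low cells. Its log2 fold changes with 22 libraries ran from -0.0039 to 0.43, with a smallest edgeR adjusted p of 0.131. In both naive groups replicate 1 was the highest, at 902 and 1177 CPM. Exons of Tgm2 overlap Gm20412 (13.7% of its bases) and Rprd1b (8.03%) on the opposite strand.

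Scaled by length, the 10 genes sat on very different levels. In CPM per kb of exon, the mean of Chil3 ran from 7199 in young naive to 32988 in old asbestos Siglec F-low cells. Mrc1 ran from 288 to 356, Tgm2 from 171 to 236, Stat6 from 56.0 to 64.7 and Il4ra from 36.3 to 44.7 over the groups of the 22 libraries. Arg1, at 0.262 in young naive cells, lay far below all of these, and at 194 in old asbestos Siglec F-low cells it was above Stat6 and Il4ra. Retnla went from 3.40 in old naive to 84.6 in old asbestos Siglec F-low cells. Socs1, Arg2 and Nos2 were the 3 lowest in that last group, at 2.15, 1.31 and 0.246.

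**Figure D3:**
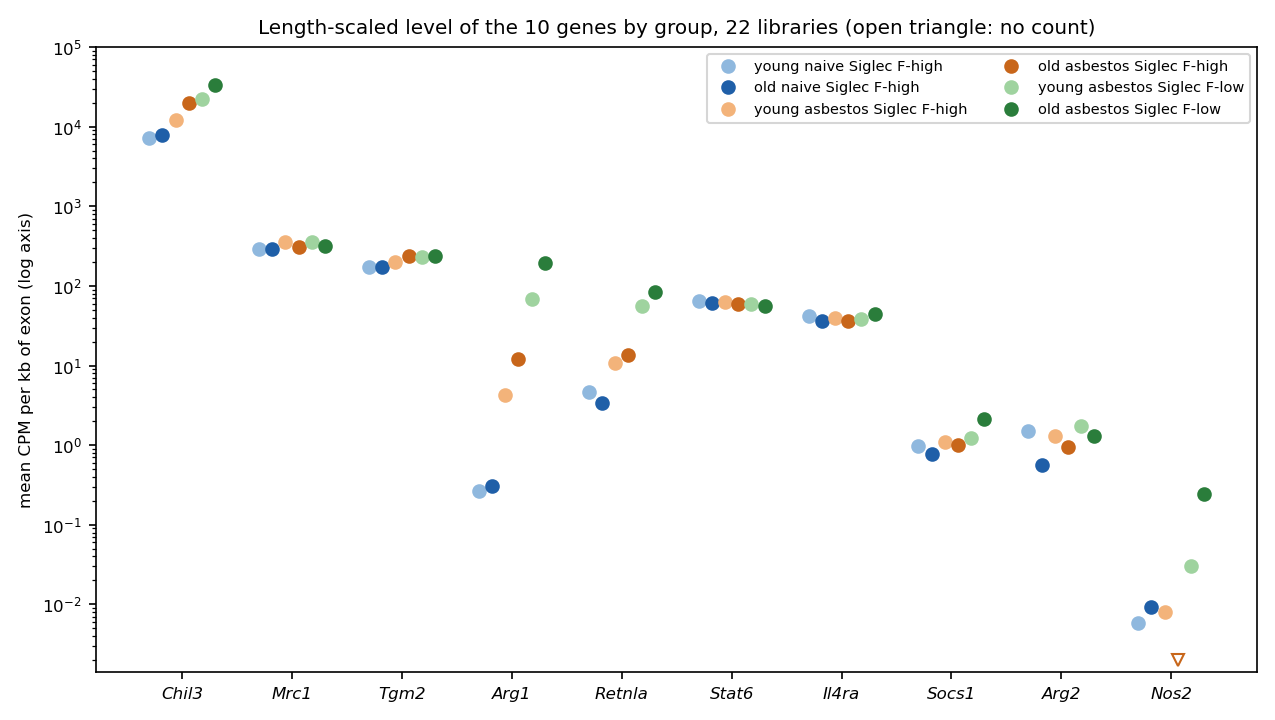
Mean level of each gene per group in CPM per kb of exon (vertical axis, logarithmic), from the 22 libraries, with colours for the 6 groups and an open triangle at the foot where no read was seen. Chil3 is highest in every group, and Arg1 moves from 0.262 to 194 while Stat6 stays between 56.0 and 64.7.

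The list of other IL-4 and IL-13 signalling genes held 16, of which 14 were tested. With 24 libraries Socs3 alone was called, higher in Siglec F-low cells of both ages, 1 of 14 where 4.99% and 4.3% of all genes were called. The list had no call in the other 5 comparisons of 2 groups. There 2.03%, 4.76% and 1.29% (age) and 1.9% and 0.78% (asbestos) of all genes were called. Socs3, a feedback inhibitor of cytokine signalling best known for its action on IL-6 type receptors, rose by 1.10 ± 0.20 in young and 1.69 ± 0.21 in old mice (edgeR adjusted p 0.00155 and 3.03e-05). In old asbestos Siglec F-low cells it stood at 112 ± 20 CPM (SD, n = 4), against 65.8 ± 18 CPM (SD, n = 4) in young ones. With 22 libraries the numbers higher were 0, 1 and 2 for age, 0 and 1 for asbestos and 2 and 1 for the sorts. In naive cells 1 was lower with age. Shares of all genes called were then 8.03%, 7.32%, 7.21%, 5.06%, 4.12%, 12% and 11.6%. In that fit old against young Siglec F-low cells were also higher in Socs3 (0.77 ± 0.19, edgeR adjusted p 0.0142) and in Cish (0.82 ± 0.14, edgeR adjusted p 0.000583), an inhibitor induced by STAT5. Il13ra1, the partner chain of Il4ra, rose by 0.29 ± 0.09 with age in asbestos Siglec F-high cells and by 0.29 ± 0.08 with asbestos in old mice (edgeR adjusted p 0.0426 and 0.0428, 22 libraries). Il2rg, the common gamma chain, was 0.48 ± 0.12 higher in Siglec F-low cells of young mice (edgeR adjusted p 0.0112), and Irs2, an adaptor of the IL-4 receptor, fell by 0.71 ± 0.17 on the log2 scale with age in naive cells (edgeR adjusted p 0.0106). The cytokine genes themselves were barely seen, Il4 at up to 1.22 CPM and Il13 at up to 0.627 CPM, and neither was tested.

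Of 25 further target genes linked with alternative activation, all 25 were tested, Rnase2a under its current name in place of the older symbol Ear11. Rnase2a was matched after it had appeared among the genes most alike to Chil3, and the listed Chil4 can share reads with Chil3. Calls of both are therefore not independent of the members. The list as a whole, like the other lists, was chosen with earlier results of these data known. Its counts and medians beside those of all genes are therefore descriptive and no test of a shift. With 24 libraries both are among the 3 higher for age in asbestos Siglec F-high cells and the 3 for asbestos in old mice. With 24 libraries 0, 3 and 3 were higher in old than in young cells (naive Siglec F-high, asbestos Siglec F-high, asbestos Siglec F-low) and none was lower. Asbestos went with 6 higher genes in young and 3 in old Siglec F-high cells, and the Siglec F-low sort with 6 higher and 1 lower in young and 6 higher in old mice. Of all genes tested, 2.03%, 4.76% and 1.29% were called for age, 1.9% and 0.78% for asbestos and 4.99% and 4.3% for the sorts. With 22 libraries the numbers higher were 1, 4 and 9 for age, 8 and 10 for asbestos and 9 and 10 for the sorts, with 1 lower for age in Siglec F-low cells and 2 and 1 lower for the sorts. The shares of all genes called were then 8.03%, 7.32% and 7.21% for age, 5.06% and 4.12% for asbestos and 12% and 11.6% for the sorts. The list's median log2 fold change with 22 libraries was 0.17, 0.44 and 0.51 for age, 0.35 and 0.49 for asbestos and 0.41 and 0.67 for the sorts, where the median over all genes tested was within 0.02 of 0.

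Rnase2a (ENSMUSG00000047222, chromosome 14, 51255262 to 51256112, minus strand), an RNase A family gene linked with eosinophils and with alternatively activated macrophages, was close to absent in naive libraries. Young naive libraries held 0, 0, 0 and 1 read and old naive libraries 0, 10, 3 and 0 reads. Old asbestos Siglec F-high libraries read 41.3, 49.4, 0 and 21.3 CPM and young ones 3.001, 4.08, 3.48 and 1.56 CPM. In the Siglec F-low sort it read 31.7, 76.0, 28.5 and 16.6 CPM in young and 184, 157, 123 and 139 CPM in old mice. Old exceeded young Siglec F-high cells by 3.34 ± 0.58 (edgeR adjusted p 0.00138; 3.68 ± 0.46 with 22 libraries), and the difference in Siglec F-low cells was 1.98 ± 0.52 (edgeR adjusted p 0.0621), or 1.98 ± 0.32 with 22 libraries (edgeR adjusted p 0.000376). The gene belongs to a family of similar copies, so the counting could have shifted reads among them.

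Irf4, a transcription factor needed for part of the IL-4 response, rose with age in both sorts after asbestos. It read 7.93, 8.20, 3.58 and 8.36 CPM in young and 16.4, 17.7, 12.3 and 20.7 CPM in old Siglec F-high libraries. In the Siglec F-low sort it read 12.6, 13.5, 12.9 and 7.36 CPM in young and 41.1, 39.3, 29.3 and 40.5 CPM in old mice, with no overlap in either sort. The changes were 1.29 ± 0.24 and 1.69 ± 0.23 (edgeR adjusted p 0.00301 and 0.000276), and naive cells gave -0.02 (edgeR adjusted p 1). Pdcd1lg2, the immune checkpoint ligand PD-L2, rose with age in Siglec F-low cells by 0.91 ± 0.19 (edgeR adjusted p 0.0165) and was 1.30 ± 0.20 higher in Siglec F-low than in Siglec F-high cells of old mice (edgeR adjusted p 0.000400). Klf4, a transcription factor that works with STAT6, rose with age in Siglec F-low cells by 0.50 ± 0.12 (edgeR adjusted p 0.0435).

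Ccl17, a chemokine that draws T cells, rose with asbestos in Siglec F-high cells by 3.16 ± 0.60 in young and 3.71 ± 0.62 in old mice (edgeR adjusted p 0.00544 and 0.00364). With 22 libraries the young value was 2.52 ± 0.49 (edgeR adjusted p 0.00331), since the outlying young library read 33.5 CPM against 9.23 to 11.4 CPM in the others, and the old value 3.96 ± 0.49 (edgeR adjusted p 2.96e-05). Msr1, a scavenger receptor, rose with asbestos in young mice by 1.74 ± 0.31 (edgeR adjusted p 0.00293) and was 1.47 ± 0.30 and 1.59 ± 0.31 higher in the Siglec F-low sort of young and old mice (edgeR adjusted p 0.00406 and 0.00307). The 1 target lower with 24 libraries was Flt1, a receptor for vascular growth factors, which fell by 1.32 ± 0.27 on the log2 scale in young Siglec F-low cells (edgeR adjusted p 0.00450). Young asbestos Siglec F-low replicate 2, the library highest in Arg1 and Retnla in its group, was also highest there in Ccl17 (73.1 against 15.8 to 24.5 CPM), in Rnase2a and in Ccl24, an eosinophil-attracting chemokine (32.5 against 1.54 to 3.25 CPM). These genes were set side by side after their values were seen.

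**Figure D4:**
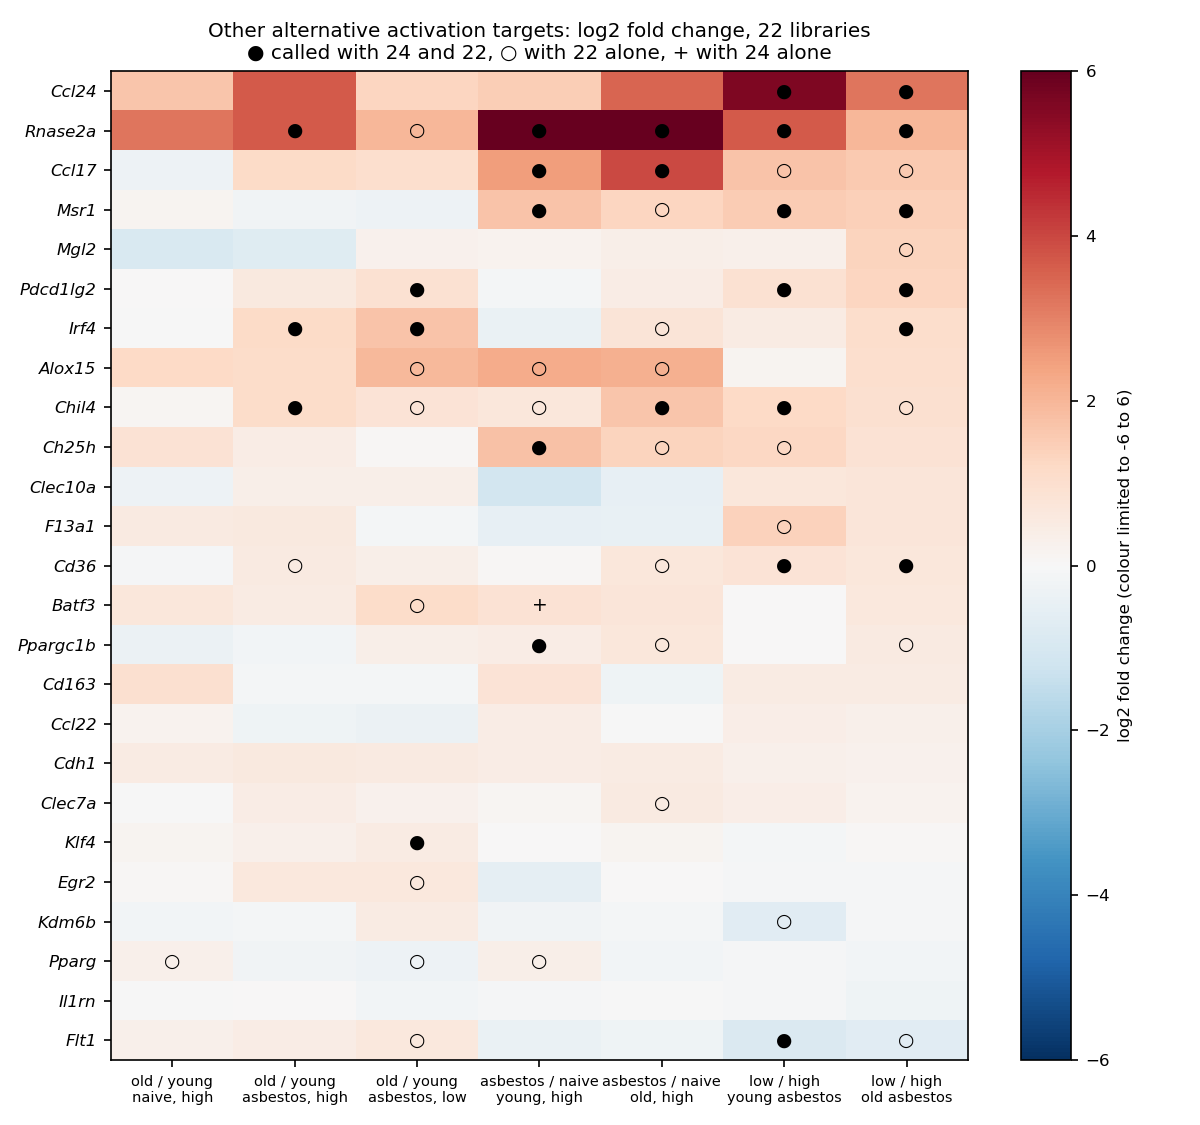
Log2 fold change with 22 libraries (colour) of the 25 further target genes (rows, ordered by the old Siglec F-low against Siglec F-high contrast) in the 7 comparisons of 2 groups (columns). Filled dots mark genes called with both sets of libraries, open dots those called with 22 alone and a plus sign those called with 24 alone, and most marks stand on higher values.

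Of 20 genes that supply or use arginine or make polyamines, 17 were tested. With 24 libraries the number higher was 0, 1 and 1 for age (naive, asbestos Siglec F-high, asbestos Siglec F-low), 0 and 1 for asbestos and 1 and 1 for the sorts, with none lower, where 2.03%, 4.76%, 1.29%, 1.9%, 0.78%, 4.99% and 4.3% of all genes were called. With 22 libraries the numbers higher were 0, 3 and 2, 1 and 2, and 3 and 1, with 1 lower in the sorts of young mice. Shares of all genes called were then 8.03%, 7.32%, 7.21%, 5.06%, 4.12%, 12% and 11.6%. Ass1, which remakes arginine from citrulline, rose with age in Siglec F-high cells after asbestos by 1.67 ± 0.41 (edgeR adjusted p 0.0210) and was 1.75 ± 0.40 higher in the Siglec F-low sort of young mice (edgeR adjusted p 0.00949). Slc7a2, a carrier that brings arginine into the cell, rose with asbestos in old Siglec F-high cells by 0.74 ± 0.11 (edgeR adjusted p 0.00107) and was 0.43 ± 0.11 higher in the Siglec F-low sort of old mice (edgeR adjusted p 0.0264). Slc7a1, another arginine carrier, rose with age in Siglec F-low cells by 0.61 ± 0.14 (edgeR adjusted p 0.0288).

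Classical activation, the programme of interferon gamma and bacterial products to which Nos2 belongs, gave 1 call among 18 tested of 21 genes with 24 libraries, for age in asbestos Siglec F-high cells, where 4.76% of all genes were called. With 22 libraries the numbers higher and lower were 1 and 1, 3 and 1, and 1 and 0 for age, 0 and 2, and 1 and 0 for asbestos, and 1 and 1, and 2 and 2 for the sorts. In the same order 8.03%, 7.32%, 7.21%, 5.06%, 4.12%, 12% and 11.6% of all genes were called. Cxcl9, an interferon-induced chemokine, rose with age in asbestos Siglec F-high cells by 1.88 ± 0.49 (edgeR adjusted p 0.0304). With 22 libraries Cxcl9 was also higher in old naive cells (1.44 ± 0.27, edgeR adjusted p 0.00112) and lower in Siglec F-low than in Siglec F-high cells of old mice, where it fell by 1.15 ± 0.29 on the log2 scale (edgeR adjusted p 0.0104). In that last contrast Fcgr1, an Fc receptor, also fell by 0.71 ± 0.15 on the log2 scale (edgeR adjusted p 0.00273). Cd40, a costimulatory receptor, was 1.37 ± 0.42 and Ifngr2, a chain of the interferon gamma receptor, 0.27 ± 0.08 higher in the Siglec F-low sort (edgeR adjusted p 0.0325 and 0.0222). Cd40 was low, at means of 1.54 and 0.438 CPM over all libraries of the 2 sorts. In young mice Ifngr2 was also higher in that sort, by 0.52 ± 0.08 (edgeR adjusted p 8.77e-05). Fcgr1 fell there by 0.54 ± 0.15 on the log2 scale (edgeR adjusted p 0.0196). Of the old asbestos libraries, those of the Siglec F-low sort alone held Nos2 reads, though not all of them did. Also with 22 libraries, Irf5 rose with age in Siglec F-low cells by 0.51 ± 0.10 (edgeR adjusted p 0.00262). Il1b rose with asbestos in old mice by 1.27 ± 0.36 (edgeR adjusted p 0.0473). Ifngr1 fell with age in naive and asbestos Siglec F-high cells by 0.33 ± 0.09 and 0.53 ± 0.10 on the log2 scale (edgeR adjusted p 0.0231 and 0.00226).

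The genes most alike to Arg1, Chil3, Retnla and Mrc1 were ranked by Pearson r of log2 CPM over the 24 libraries, which share groups, depth and sort. For Arg1 they included Ptgs1 (r 0.970), Chchd10 (0.962), Papss2 (0.959) and Sphk1 (0.957). For Chil3 they were Rnase2a (0.977), Npy (0.956), H2-T22 (0.952), Ctsl (0.951) and Nags (0.951). For Retnla they included Ms4a7 (0.943), Nnmt (0.937), Ccl17 (0.929) and Lgmn (0.928). For Mrc1 they were Ddhd1 (0.912), Dip2a (0.906), Mitf (0.904), Mical2 (0.902) and Mroh1 (0.901). Without the outlying libraries Rnase2a stayed among the 5 for Chil3 (0.976) and Mitf among the 5 for Mrc1 (0.881), and the other names changed.

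Markers of other cells moved with the Siglec F-low sort, in which Arg1, Chil3 and Retnla were highest. The 9 markers of monocyte-derived or interstitial macrophages were all detected and summed to 24.6 to 55.0 CPM in the Siglec F-high libraries, 145 to 182 CPM in young and 232 to 299 CPM in old Siglec F-low libraries. The complement genes C1qa, C1qb and C1qc made up most of that difference. The 5 eosinophil markers summed to 2.36 to 8.05 CPM in naive, 17.6 to 27.7 CPM in young and 5.72 to 35.3 CPM in old asbestos Siglec F-high, and 42.2 to 62.3 CPM in young and 17.02 to 53.4 CPM in old asbestos Siglec F-low libraries. Most of this was Ear6, while Epx, which defines eosinophils, was at 0 in the old naive and young asbestos Siglec F-low groups and at most 0.181 CPM elsewhere. The 7 markers of T cells and innate lymphoid cells summed to 17.5 to 43.0 CPM in Siglec F-high and 47.1 to 104 CPM in Siglec F-low libraries, mainly through Il7r, with Cd3e at 0.912 to 3.76 CPM in the Siglec F-low sort. The 8 neutrophil markers summed to 20.4 to 94.9 CPM in Siglec F-high and 65.9 to 84.4 CPM in Siglec F-low libraries. Without the 2 outlying libraries the Siglec F-high sums were 21.9 to 62.4 CPM, below every Siglec F-low sum. The neutrophil gene Ly6g, however, had no read in 5 groups and was at most 0.0669 CPM in the old asbestos Siglec F-low group. Over all libraries, markers of lung epithelium summed to 168 to 385 CPM, of B cells to 8.98 to 51.6 CPM, of dendritic cells to 18.2 to 44.0 CPM and of macrophages of any kind to 15014 to 33722 CPM. The part of these cells in the levels of the 10 genes was not tested.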

How the data were processed

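The authors deposited 1 table of raw counts per Ensembl mouse gene for 24 libraries, with whole-number values that had not been scaled. Per the labels' protocols, RNA came from an AllPrep kit and libraries from 30 ng with a NEBNext Ultra kit and poly(A) selection. The submitters' processing notes name bcl2fastq 2.19.1, FastQC, Trimmomatic 0.36, STAR 2.6.0, HTSeq 0.11.2 and the build mm10. The annotation and strand setting are not given in the sources used here. Symbols were found for 42462 of 43430 IDs, and positions are GENCODE M21 on GRCm38.

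All 24 libraries were fitted with edgeR 4.0.16 in R 4.3.3 (quasi-likelihood, TMM, 1 term per group, filterByExpr at a minimum count of 10 and minimum total of 15), which left 13467 genes, or 13629 with 22 libraries, including 9 of the 10 members. P-values were adjusted by Benjamini-Hochberg over all genes of a comparison, and SE is the absolute log2 fold change divided by the square root of F. On data simulated for the naive age comparison (13317 genes), 57% of genes with a true log2 change of 1 and 83.8% with 2 were called. Correlations used log2 CPM with a prior count of 2. Motifs were searched in 250 bases before each RefSeq start.

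Alternatives were size factors of DESeq2 1.42.0, its own test, no filter, a replicate block, 22 libraries and leaving out each library. A further 2 fits, 22 libraries with a replicate block and 21 libraries, were added after seeing the data. The members and lists were chosen with earlier results of these data known. Ear11 of the target list was matched as Rnase2a through its RefSeq synonym, after Rnase2a had appeared among the genes most alike to Chil3. All members were named. Genes named from the pathway lists come from up to 4 called genes of smallest p per comparison, but not all of those are named. Left out are, among others, Ch25h and Cd36 with 24 libraries and Irf1, Gbp2, Sat1, Ddah1 and Oaz2 with 22. Il4, Il13 and Ccl24 were named outside this rule. For Arg1, Mrc1, Chil3 and Retnla the 5 genes of highest r were taken, of which some are not reported here. Counts without a symbol made up 0.117 to 0.196% of a library.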

Additional observations from a re-analysis of the deposited data

Results flagged for a closer look

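In groups of 4, a library is named here when its gap to the nearest other library was, as a share of the group's range, above Dixon's critical value for 4 samples, which chance gives in about 1 of 20 groups. Of 59 groups of values, 12 had such a library, 4 of them in the outlying libraries.

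Young asbestos Siglec F-low replicate 2 stood high in Arg1, at 211 CPM against 131 to 137, and in Retnla, at 75.7 CPM against 15.8 to 24.6. Young asbestos Siglec F-high replicate 3, an outlying library, was high in Retnla (63.0 CPM against 3.93 to 8.05) and low in Mrc1 (1211 CPM against 2150 to 2340) and Stat6 (190 CPM against 267 to 279). Old asbestos Siglec F-high replicate 3, the other outlying library, was low in Retnla, at 1.63 CPM against 8.02 to 8.08.

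Tgm2 was high in replicate 1 of both naive groups, at 902 CPM against 741 to 757 in young and 1177 CPM against 637 to 707 in old mice. Chil3 was high in young naive replicate 2, at 14711 CPM against 10571 to 11024. Nos2 was seen in a single library of its group at 0.166 CPM in old naive replicate 3, 0.107 CPM in young asbestos Siglec F-high replicate 1 and 0.540 CPM in young asbestos Siglec F-low replicate 1, from 3, 2 and 8 reads.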

How the results depend on the processing

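The number of genes called moved with the libraries and the tool, and the order below is age in naive, asbestos Siglec F-high and asbestos Siglec F-low cells, asbestos in young and old mice, the sorts in young and old mice. With 24 libraries it was 273, 641, 174, 256, 105, 672 and 579, with DESeq2 474, 1432, 358, 594, 248, 1133 and 924, and with 22 libraries 1094, 997, 983, 690, 562, 1638 and 1578. With 21 libraries it was 1073, 968, 661, 683, 519, 1179 and 1563, and with 22 libraries and a replicate block 1476, 1347, 1240, 889, 725, 2440 and 1954. The last 2 sets were chosen after seeing the data. Leaving out 1 library of 24 gave ranges of 179 to 726, 314 to 1592, 77 to 620, 101 to 647, 39 to 411, 427 to 1158 and 269 to 1543. For the interaction of asbestos and age, where edgeR with 24 libraries called 0, it was 2 with 22 libraries, 2 with 21, 2 with 22 and a block, and 0 to 2 leaving out 1. For the interaction of sort and age, also 0, it was 6 with DESeq2, 2 with 22 libraries, 2 with 21, 14 with 22 and a block, and 0 to 2 leaving out 1. Arg1 kept all 6 of its calls in every alternative. Retnla in Siglec F-low against Siglec F-high cells of young mice ranged from -0.0932 to 2.34 on leaving out 1 library and turned sign without young Siglec F-low replicate 2. Of the 20 member results called with 24 or with 22 libraries, the DESeq2 size factors changed no call, no filter and the block 1 each, DESeq2 2, 22 libraries 10 and 21 libraries 9. The number for 22 libraries follows from how the 20 were chosen, so it does not measure robustness.

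Over 24 libraries no pair of groups had every same-number correlation above 0.1: same-number correlations of deviations from group means were 0.0733 to 0.186 between the old asbestos sorts (4 of 4 best with their own number) and -0.180 to 0.245 between the young ones. Among 22 libraries they were 0.161 to 0.216 between the old sorts, where every one of 3 pairs passed 0.1, and 0.0877 to 0.329 between the young ones, where not every pair did, with 3 of 3 best with their own number in both. By that measure the numbers pair the old asbestos sorts of the 22 and no other groups. The block, whose counts are given above, used the same replicate terms in all 6 groups. It is therefore no test of that pairing. The replicate block ended the call of Retnla for asbestos in young mice (2.57, edgeR adjusted p 0.0852) and no other call of a member. Nos2, with 0 to 43 reads per library, was too low to pass the filter.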
